A study of Mus musculus with 10 samples.

Results

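The 35 genes described here encode the machinery that makes sterols and fatty acids, and they were examined in the kidneys of aged mice as an output of mTORC1, the kinase complex that links nutrient supply to growth. They were chosen by gene symbol, and all 35 were found among the 13299 genes of the table of normalized counts. All 35 also passed the filter on low values, which kept 13236 genes. Whole kidneys of mice aged 1.5 years were compared between 5 Rragc S74N/+ samples, in which 1 allele of Rragc carries the S74N change, and 5 Rragc +/+ samples. Rragc encodes RagC, a GTPase that recruits mTORC1 to lysosomes, and S74N is an activating form. The allele is a germline knock-in that also carries silent changes, so every cell type of the kidney carries it, and no treatment or other allele is named in the labels. The labels do not say in words that each sample is a separate mouse, so p-values measure the spread between these samples. Replicate numbers were given here in the order of the samples within each genotype, and equal numbers do not pair samples. RNA was read at the 3′ end of transcripts, so counts do not grow with transcript length, and each value below is a normalized count unless it is called a log2 fold change.

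Cells make cholesterol from acetyl-CoA through mevalonate, squalene and lanosterol, and they make fatty acids from the same acetyl-CoA through malonyl-CoA. The SREBP transcription factors switch on the enzymes of both routes. They wait in the endoplasmic reticulum bound to SCAP, are held there by INSIG proteins when sterols are plentiful, and are cut and sent to the nucleus when sterols fall. mTORC1 is known to promote SREBP activity, and in the kidney these routes supply membranes and the lipid that tubule cells store or burn.

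Reads counted in the 13299 genes ran from 4488493 to 5797251 per sample, as recovered from the normalized counts of all 10 samples. Reads outside these genes are not part of this number. The sum of normalized counts and the share of mitochondrially encoded transcripts each differed between genotypes with an exact two-sided permutation p of 0.056, where the smallest p that 5 against 5 samples allow is 0.00794. Rragc itself had 114.4 to 204.0 normalized counts in Rragc +/+ and 90.1 to 160.4 in Rragc S74N/+ kidneys, and 3′ reads carry no trace of the allele. The tissue label was checked against 10 markers of the proximal tubule. Their sum ran from 43948 to 57439 in Rragc +/+ and from 43845 to 56494 in Rragc S74N/+ kidneys. Of these 10, 8 had fold changes below 0. Slc5a2 (log2 fold change -1.05) was the 1 gene past an adjusted p under 0.05 in limma. Sums for some other cell types differed more. The summed distal convoluted tubule markers ran from 6168 to 7211 in Rragc +/+ and from 2560.4 to 3564 in Rragc S74N/+ kidneys, with 5 of 5 genes lower. Those of the thick ascending limb ran from 10806 to 14844 and from 5127 to 11006. Of its 6 genes, Umod (log2 fold change -1.55) and Egf (-1.05) were past that threshold. The others were Kcnj1 (-0.55), Cldn19 (-0.067), Slc12a1 (0.043) and Cldn16 (0.44). The summed markers of myeloid cells ran from 606 to 752 and from 872 to 1137, those of lymphocytes from 149 to 371 and from 327 to 606, and those of fibroblasts from 809.5 to 1415 and from 1314 to 2202. The same threshold was passed by 2 of 9 myeloid, 2 of 6 lymphocyte and 3 of 7 fibroblast genes, all higher. In these lists 2, 0 and 1 genes had fold changes below 0. None of the 6 markers of adrenal cortex, a steroid-making tissue next to the kidney, was in the table. In bulk tissue, fewer cells of a type and less RNA per cell cannot be told apart, and the part of these marker changes in the results below was not tested.

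Most of the 35 genes did not differ between genotypes beyond the spread of the samples. At an adjusted p under 0.05 (limma on log2 of the normalized count plus 1, two-sided, Benjamini-Hochberg over all 13236 genes), 1 gene was higher in Rragc S74N/+ kidneys, Me1, against 3.45% of all genes tested, and 1 was lower, Msmo1, against 2.58%. The other 33 did not pass. The 2 genes called are 5.71% of the 35, near the 6.03% of all genes that were called in either direction. The samples of the genotypes did not overlap for the same 2 genes, 5.71% of the 35 against 8.16% of all genes. At an unadjusted p under 0.05, 1 gene was higher (2.86% against 12.6% of all genes) and 7 were lower (20% against 12.8%), namely Srebf2, Scap, Msmo1, Nsdhl, Dhcr7, Fads1 and Fads2. Over the fits that left out 1 sample, the number lower at that level ran from 4 to 10. It was 4 without Rragc +/+ replicate 2 and 10 without Rragc S74N/+ replicate 3. Over all genes these 2 fits called 311 and 902 at an adjusted p under 0.05, against 798 with all samples.

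The fold changes of these genes lay on both sides of 0. The median log2 fold change over the 35 was -0.079, against -0.013 over all genes, with 15 values above 0 and 20 below. With columns scaled to equal totals these medians were -0.0080 and 0.064. For 31 of the 35 genes the 95% interval of the fold change excluded a rise of 2-fold, against 11073 of all 13236 genes. It lay within 1 log2 unit of 0 on both sides for 24 of the 35, against 9165 of all genes. Within 0.5 log2 units it lay for 7 of the 35, against 2941 of all genes. The 4 genes whose interval reached past a 2-fold rise were Acaca, Fasn, Elovl6 and Scd1, the genes with the widest spread between samples.

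**Figure D1:**
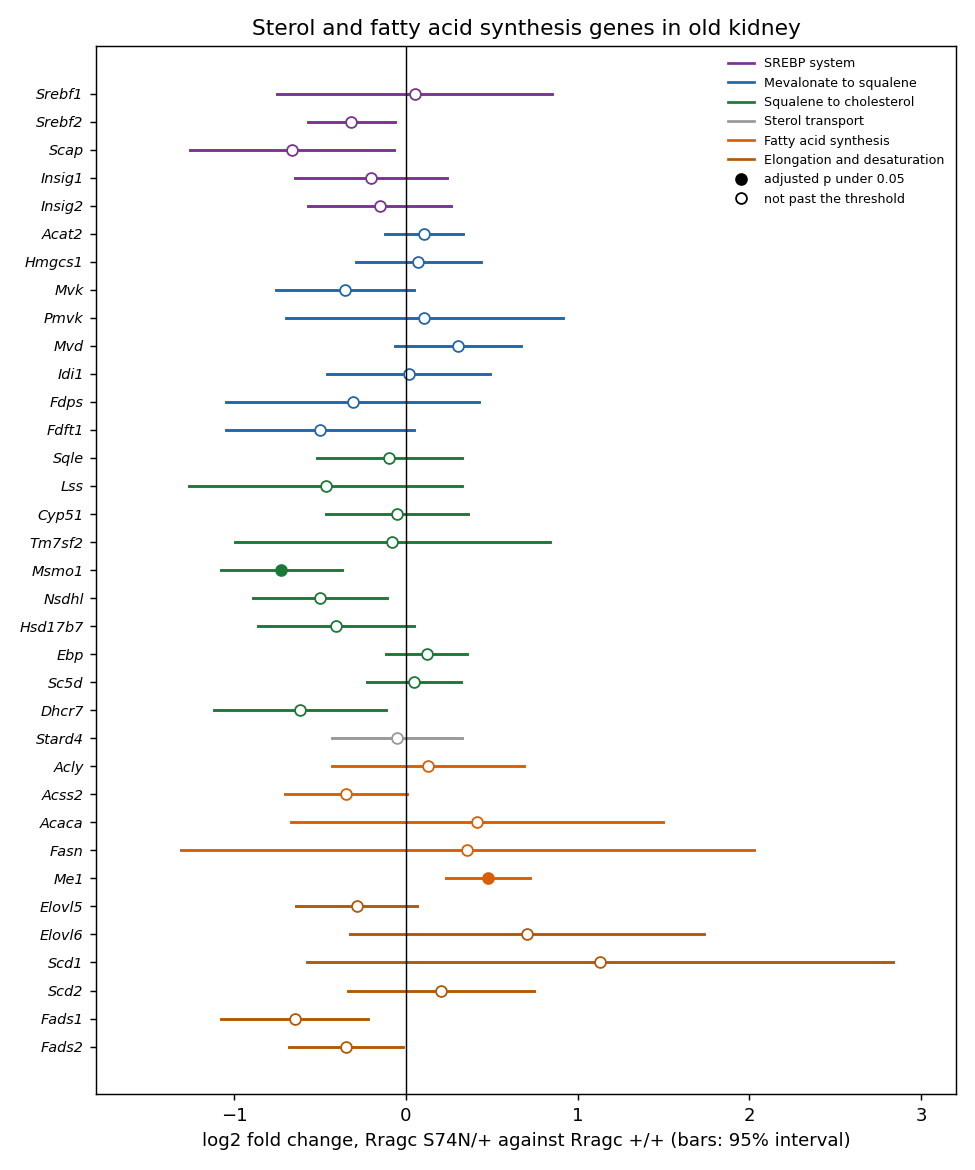
Log2 fold change of each of the 35 genes in Rragc S74N/+ against Rragc +/+ kidneys (n = 5 per genotype), with bars for the 95% interval from limma and color for the role of the gene. Only the intervals of Msmo1 (-0.73) and Me1 (0.48) belong to genes past the adjusted threshold, shown as filled points, and the intervals of Fasn and Scd1 are the widest.

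Promoter sequence was examined for the letters that SREBPs and their partner NF-Y are known to bind, since many of these genes are known as SREBP targets. Windows from 250 bases before to 50 bases after the start of transcription, from RefSeq on build GRCm38.p6 (the counts were made on GRCm39), were found for 28 of the 35 genes, as 37 windows. The SREBP element TCACNCCAC, searched on both strands, was in 1 window, that of Hmgcs1 (2.70%, against 1.24% of 32851 mouse windows). The CCAAT box (CCAAT, both strands) was in 24 windows (64.9% against 37.4%), and the E-box CACGTG, a palindrome, in 7 (18.9% against 7.15%). No match overlapped another in the windows printed here, and a match describes the sequence without showing that a factor binds. One window each of 4 genes is printed with every match in capitals, to set the genes called in either direction beside a classical SREBP target and a sterol sensor. Msmo1 lies on the minus strand at chr8:64733529-64733828 and holds 3 CCAAT boxes. Me1 lies on the minus strand at chr9:86695865-86696164 and holds none of the motifs. A later start of Me1, whose window is not printed, has 1 CCAAT box at base 43. Hmgcs1 lies on the plus strand at chr13:119690101-119690400, with the SREBP element at base 114 of the window and 4 CCAAT boxes read from the other strand. Insig1 lies on the plus strand at chr5:28071162-28071461 and holds 1 CCAAT box, read from the other strand, and 1 E-box.
Msmo1: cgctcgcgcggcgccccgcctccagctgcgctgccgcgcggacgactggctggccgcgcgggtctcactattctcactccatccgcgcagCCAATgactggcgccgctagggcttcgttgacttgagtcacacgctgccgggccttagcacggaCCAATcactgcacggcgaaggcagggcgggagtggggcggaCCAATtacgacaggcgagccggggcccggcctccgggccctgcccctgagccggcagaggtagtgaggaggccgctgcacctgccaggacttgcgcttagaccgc
Me1: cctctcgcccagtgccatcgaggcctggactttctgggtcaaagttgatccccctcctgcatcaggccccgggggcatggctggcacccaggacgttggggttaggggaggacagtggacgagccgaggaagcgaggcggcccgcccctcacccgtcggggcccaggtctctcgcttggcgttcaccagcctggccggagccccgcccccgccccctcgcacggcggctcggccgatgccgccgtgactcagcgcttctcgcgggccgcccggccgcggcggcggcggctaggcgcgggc
Hmgcs1: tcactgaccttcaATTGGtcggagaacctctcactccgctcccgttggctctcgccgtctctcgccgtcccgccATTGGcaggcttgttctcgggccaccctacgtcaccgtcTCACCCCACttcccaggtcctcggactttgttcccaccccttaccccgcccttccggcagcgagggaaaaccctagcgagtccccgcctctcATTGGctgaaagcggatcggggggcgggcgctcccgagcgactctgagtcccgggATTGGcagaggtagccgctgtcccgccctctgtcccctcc
Insig1: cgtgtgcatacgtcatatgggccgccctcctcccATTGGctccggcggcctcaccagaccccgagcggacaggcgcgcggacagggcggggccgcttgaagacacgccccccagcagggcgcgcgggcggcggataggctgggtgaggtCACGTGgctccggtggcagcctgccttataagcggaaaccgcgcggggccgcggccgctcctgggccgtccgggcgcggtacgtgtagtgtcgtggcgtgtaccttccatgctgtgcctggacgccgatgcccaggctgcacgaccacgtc

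The SREBP system itself comprised 5 genes, of which none passed the adjusted threshold, with log2 fold changes from -0.66 to 0.05 and a median of -0.20. Srebf2 encodes the SREBP that acts mainly on sterol genes. Its normalized counts were 277.4, 296.5, 281.3, 282.9 and 336.3 in Rragc +/+ and 289.1, 228.7, 221.0, 233.2 and 213.7 in Rragc S74N/+ kidneys. All Rragc S74N/+ samples but replicate 1 lay below every Rragc +/+ sample. On the log2 scale the difference was -0.32 (95% interval -0.57 to -0.065, unadjusted p = 0.0168, adjusted p = 0.11 in limma). Leaving out Rragc S74N/+ replicate 1 gave -0.39, which passed (limma adjusted p = 0.043).

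Scap encodes the escort protein that senses sterols and carries SREBPs to the Golgi. The samples held 212.6, 230.9, 198.7, 153.7 and 178.1 counts in Rragc +/+ and 46.6, 127.9, 176.0, 166.0 and 151.6 in Rragc S74N/+ kidneys. Replicate 1 of the Rragc S74N/+ group was far below the rest, and the groups overlapped between 153.7 and 176.0. This is a log2 fold change of -0.66 (95% interval -1.26 to -0.067, limma adjusted p = 0.15), and it was -0.32 when Rragc S74N/+ replicate 1 was left out (adjusted p = 0.19).

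Srebf1 encodes the SREBP that acts mainly on fatty acid genes, and its counts were low, 21.3, 33.3, 13.4, 7.9 and 18.9 in Rragc +/+ and 35.4, 18.4, 13.0, 16.3 and 12.6 in Rragc S74N/+ kidneys. The groups overlapped almost throughout. The mean was 18.9 ± 9.54 against 19.2 ± 9.41 (SD, n = 5 each), and the log2 fold change was 0.05 (95% interval -0.75 to 0.85, limma adjusted p = 0.95).

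Insig1 and Insig2 encode the proteins that hold SCAP in the endoplasmic reticulum, and Insig1 is itself a known SREBP target. Insig1 counts were 130.9, 114.4, 136.3, 87.3 and 99.5 in Rragc +/+ and 136.1, 108.6, 119.0, 60.1 and 82.6 in Rragc S74N/+ kidneys. Insig2 counts were 38.0, 41.6, 45.1, 39.3 and 32.8 in Rragc +/+ and 28.0, 35.9, 36.0, 32.6 and 45.7 in Rragc S74N/+ kidneys. Both genes overlapped between genotypes, with log2 fold changes of -0.20 and -0.15 (limma adjusted p = 0.58 and 0.67).

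The 8 enzymes from acetyl-CoA to squalene had a median log2 fold change of 0.046, with 5 values above 0 and 3 below, and none passed. Hmgcs1, the synthase that makes HMG-CoA, had the highest counts of the sterol genes, at 2069.6, 2231.5, 1964, 1473 and 1686 in Rragc +/+ and 1189.9, 2190.5, 2302, 2157 and 2245 in Rragc S74N/+ kidneys. Replicate 1 of the Rragc S74N/+ group was the lowest of all 10 samples, and the other 4 of that group lay between 2157 and 2302, inside or just above the Rragc +/+ range. Its log2 fold change was 0.07 (95% interval -0.29 to 0.44, limma adjusted p = 0.83). When Rragc S74N/+ replicate 1 was left out, it was 0.25 (limma adjusted p = 0.18).

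None of the other 7 early enzymes passed. Fold changes on the log2 scale were 0.10 for Acat2, the thiolase of the first step, 0.30 for Mvd, which makes isopentenyl diphosphate, and 0.02 for Idi1, which isomerizes it. It was -0.35 for Mvk, the mevalonate kinase, and 0.11 for Pmvk, the kinase after it. For Fdps, which makes farnesyl diphosphate, it was -0.31, and for Fdft1, the squalene synthase, -0.50, the lowest of the 8. Their limma adjusted p ran from 0.24 to 0.97. The value of Pmvk rested on Rragc S74N/+ replicate 1, with 180.9 counts against 25.5 to 46.0 in the other 4 of its group, and the fit that left it out gave -0.33.

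The 10 enzymes from squalene to cholesterol had the lowest median of the role groups with more than 1 gene, -0.25, with 8 of 10 values below 0, and 1 passed. Msmo1 encodes the methylsterol monooxygenase that removes methyl groups from lanosterol products. Its normalized counts were 180.1, 193.5, 144.0, 133.6 and 143.3 in Rragc +/+ and 103.5, 97.9, 125.0, 77.4 and 77.7 in Rragc S74N/+ kidneys. Every Rragc S74N/+ sample lay below every Rragc +/+ sample, with 133.6 and 125.0 as the nearest values.

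Msmo1 thus fell from 158.9 ± 26.2 to 96.3 ± 19.9 normalized counts (SD, n = 5 each), a fold of 0.605 (95% interval 0.474 to 0.772). On the log2 scale this was -0.73 with an SE of 0.17 (adjusted p = 0.020 in limma). The call was lost without Rragc +/+ replicate 1 (adjusted p = 0.060), Rragc +/+ replicate 2 (0.064) or Rragc S74N/+ replicate 5 (0.056), and without the variance trend (0.051), while the log2 fold change stayed between -0.87 and -0.65 in all 26 alternatives. With columns scaled to equal totals the groups of Msmo1 overlapped.

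Of the other late sterol enzymes, 2 had an unadjusted p under 0.05 and both were lower. Dhcr7, the reductase of the last step to cholesterol, had 48.1, 49.9, 50.9, 48.0 and 38.8 counts in Rragc +/+ and 21.4, 41.7, 42.0, 20.4 and 33.0 in Rragc S74N/+ kidneys. Only Rragc +/+ replicate 5 reached into the Rragc S74N/+ range. Its log2 fold change was -0.62 (95% interval -1.12 to -0.12, limma adjusted p = 0.12).

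Nsdhl, which works in the same demethylation steps as Msmo1, had 125.3, 135.2, 111.4, 89.9 and 75.6 counts in Rragc +/+ and 63.4, 91.1, 74.98, 62.1 and 83.6 in Rragc S74N/+ kidneys. The ranges overlapped from 75.6 to 91.1. Its log2 fold change was -0.50 (95% interval -0.89 to -0.11, limma adjusted p = 0.11).

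The remaining 7 late enzymes gave limma adjusted p from 0.25 to 0.93. Hsd17b7, the ketoreductase that completes the demethylation steps, had a log2 fold change of -0.41, and Lss, the cyclase that makes lanosterol, of -0.46. Sqle, the squalene epoxidase, stood at -0.09, Cyp51, the lanosterol demethylase, at -0.05, and Tm7sf2, a sterol reductase with only 9.75 to 10.7 counts on average per genotype, at -0.08. Ebp, the sterol isomerase, and Sc5d, a sterol desaturase, were steady across the 10 samples, with log2 fold changes of 0.12 and 0.05 and 95% intervals of -0.11 to 0.35 and -0.22 to 0.32. Stard4, which carries cholesterol between membranes, had 246.6 ± 46.7 counts in Rragc +/+ and 240.1 ± 53.6 in Rragc S74N/+ kidneys (SD, n = 5 each), a log2 fold change of -0.05.

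**Figure D2:**
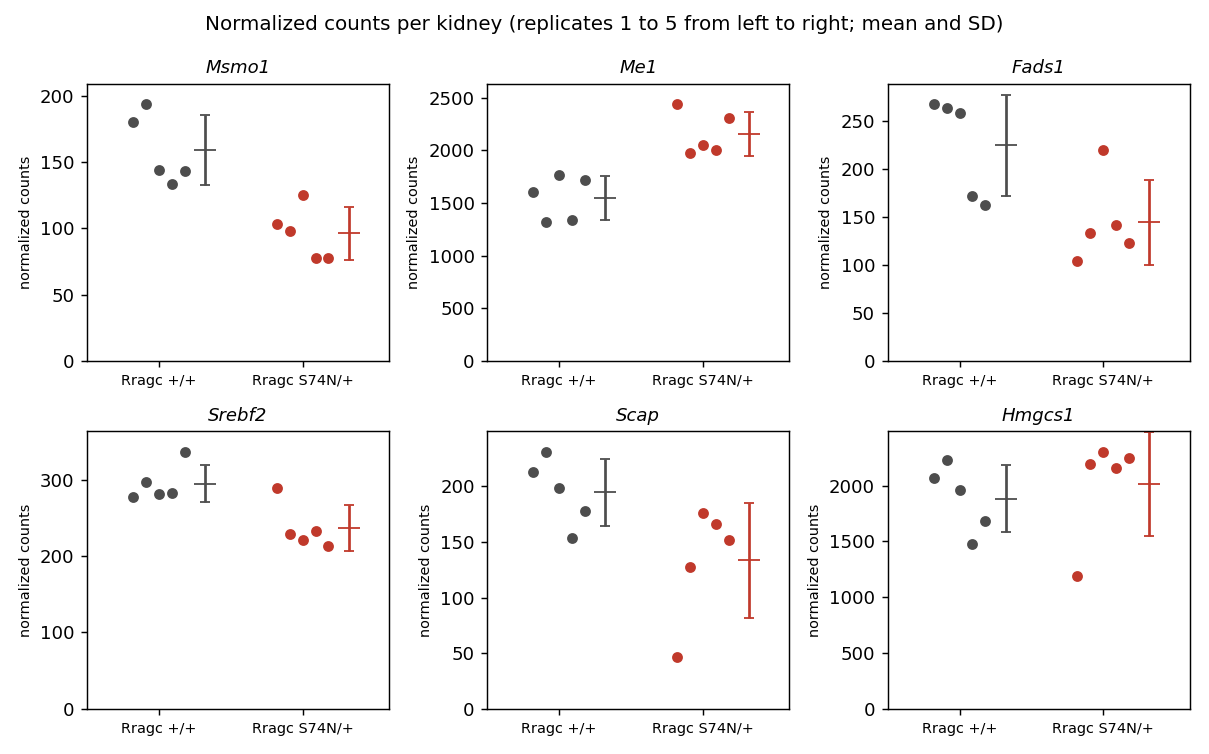
Normalized counts of 6 genes in each kidney, with replicates 1 to 5 of each genotype from left to right and the mean and SD beside them, on axes that start at 0. Msmo1 and Me1 have no overlap between genotypes, Srebf2 overlaps only through Rragc S74N/+ replicate 1 (289.1), and that replicate is also the lowest for Scap (46.6), Fads1 (104.4) and Hmgcs1 (1189.9).

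Among the 5 genes of fatty acid synthesis, 4 had fold changes above 0 and 1 passed. Me1 encodes the cytosolic malic enzyme, which makes NADPH for lipid synthesis. Its normalized counts were 1609, 1318, 1770.1, 1343 and 1718 in Rragc +/+ and 2439, 1974, 2056, 2007 and 2308 in Rragc S74N/+ kidneys. Every Rragc S74N/+ sample lay above every Rragc +/+ sample, and none stood apart from its group.

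Me1 thus rose from 1552 ± 210.2 to 2157 ± 205 normalized counts (SD, n = 5 each), a fold of 1.40 (95% interval 1.18 to 1.65). On the log2 scale this was 0.48 with an SE of 0.12 (adjusted p = 0.024 in limma), and the value lay between 0.42 and 0.56 in all 26 alternatives. The call was lost without Rragc +/+ replicate 1 (adjusted p = 0.055), Rragc +/+ replicate 2 (0.078), Rragc +/+ replicate 4 (0.066) or Rragc S74N/+ replicate 5 (0.065), and without the variance trend (0.078).

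Titles carry numbers in 2 separate ranges, though the labels name no batch, and the called genes were compared within each range. With numbers under 200 (3 against 3 samples) and over 200 (2 against 2), Msmo1 differed by -0.66 and -0.83 and Me1 by 0.47 and 0.50 on the log2 scale. Neither gene overlapped over all samples, so the absence of overlap within a range adds nothing for them. Idi1 differed by -0.48 in the first range and by 0.77 in the second, with no overlap in either, and its pooled value was 0.02. These differences within ranges were not tested.

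Fasn, the fatty acid synthase, was spread over more than an order of magnitude. It had normalized counts of 589.6, 320.4, 3384, 252.4 and 362.1 in Rragc +/+ and 7505, 792.8, 321.9, 307.6 and 343.0 in Rragc S74N/+ kidneys. A single sample of each genotype, Rragc +/+ replicate 3 and Rragc S74N/+ replicate 1, stood far above the others, and the groups overlapped. Its log2 fold change was 0.36 (95% interval -1.31 to 2.03, limma adjusted p = 0.82), and it turned to -0.48 when Rragc S74N/+ replicate 1 was left out.

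The same 2 samples were the highest for Acaca, the carboxylase that makes malonyl-CoA, and for Acly, which makes acetyl-CoA from citrate. Acaca had 327.3 and 752.6 counts in them and 71.6 to 135.7 in the other 8, and Acly had 727.6 and 940.9 in them and 316.3 to 396.0 in the other 8. The log2 fold changes were 0.41 for Acaca and 0.13 for Acly (limma adjusted p = 0.65 and 0.80), and -0.16 and -0.14 when Rragc S74N/+ replicate 1 was left out. Without Rragc +/+ replicate 3 they were 0.79 and 0.34. Acss2, which makes acetyl-CoA from acetate, did not share this pattern: Rragc S74N/+ replicate 1 was its lowest sample, at 198.6 counts, and its log2 fold change was -0.35 (limma adjusted p = 0.21).

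The 6 genes of elongation and desaturation had a median log2 fold change of -0.04, with 3 values above 0 and 3 below, and none passed. Scd1, the desaturase that makes oleate, had the highest mean count of the fatty acid genes in each genotype, although Me1 had the higher median in both. Its samples held 1069.5, 526.4, 8077, 619.2 and 729.3 counts in Rragc +/+ and 26048, 2257, 1412, 807.6 and 1555 in Rragc S74N/+ kidneys. Rragc +/+ replicate 3 and Rragc S74N/+ replicate 1 again stood far above the rest, and the groups overlapped. Its mean log2 difference was 1.13 (95% interval -0.57 to 2.84, limma adjusted p = 0.40). It was 0.29 when Rragc S74N/+ replicate 1 was left out (adjusted p = 0.78) and 1.83 when Rragc +/+ replicate 3 was (0.14).

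Elovl6, which elongates palmitate, followed Scd1 and Fasn. It had 86.4 counts in Rragc +/+ replicate 3, 199.6 in Rragc S74N/+ replicate 1 and 18.7 to 36.9 in the other 8 samples, with a log2 fold change of 0.71 (limma adjusted p = 0.38). That value was 0.20 with Rragc S74N/+ replicate 1 left out and 1.09 with Rragc +/+ replicate 3 left out. Scd2, a second desaturase of the same kind, was also highest in Rragc S74N/+ replicate 1, at 413.1 counts, with a log2 fold change of 0.21 (limma adjusted p = 0.65).

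The desaturases of polyunsaturated fatty acids, Fads1 and Fads2, had fold changes below 0 and did not pass. Fads1, which completes arachidonic acid, had 267.4, 263.2, 258.2, 172.0 and 162.2 counts in Rragc +/+ and 104.4, 133.8, 220.0, 141.6 and 122.4 in Rragc S74N/+ kidneys. Only Rragc S74N/+ replicate 3 reached into the Rragc +/+ range. Fads1 differed by -0.65 on the log2 scale (95% interval -1.07 to -0.22, unadjusted p = 0.00539, adjusted p = 0.067 in limma). Leaving out Rragc S74N/+ replicate 3 gave -0.81 (limma adjusted p = 0.018).

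On the reads of all 10 samples, Fads1 passed in DESeq2 (adjusted p = 0.040) but not in edgeR (adjusted p = 0.071). On 8 samples, without Rragc S74N/+ replicate 3 and Rragc +/+ replicate 5, the adjusted p was 0.00018 in DESeq2, 0.0090 in edgeR and 0.011 in limma. These 2 samples held the highest Rragc S74N/+ value of Fads1 (220.0) and its lowest Rragc +/+ value (162.2). Leaving them out thus sets the genotypes further apart for this gene, whatever the method. Fads2, the desaturase before it in the route, had 371.0 ± 80.5 counts in Rragc +/+ and 290.2 ± 51.6 in Rragc S74N/+ kidneys (SD, n = 5 each), a log2 fold change of -0.35 (limma adjusted p = 0.18). Elovl5, the elongase between them, had a log2 fold change of -0.29 (limma adjusted p = 0.29).

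The spread of the fatty acid genes ran alongside markers of adipocytes. The sum of 10 adipocyte markers was 1253, 607.5, 2791, 373.8 and 881.5 in Rragc +/+ and 10292, 1779.6, 1359.7, 684.4 and 1499 in Rragc S74N/+ kidneys. The highest sample of each genotype, Rragc +/+ replicate 3 and Rragc S74N/+ replicate 1, was also the highest for Fasn, Scd1, Acaca, Elovl6 and Acly. The fibroblast sum was highest in these 2 samples too (1415 and 2202). The sum of 8 collecting duct markers was highest in Rragc +/+ replicate 3 (3330) and Rragc S74N/+ replicate 2 (2634), with 2611 in Rragc S74N/+ replicate 1. No other cell type sum was highest in both. The part of other tissue was not tested. Of the 10 adipocyte markers 8 were tested and 0 were called by limma, with 1 higher and 0 lower at an unadjusted p under 0.05.

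The most specific of these markers, Adipoq, Plin1 and Cidec, summed to 110.8, 13.5, 383.0, 1.75 and 35.8 in Rragc +/+ and 747.9, 65.9, 8.998, 0 and 54.4 in Rragc S74N/+ kidneys. Rragc S74N/+ replicate 4, in which 6 of the 10 markers including these 3 were at 0, had 307.6 counts of Fasn and 807.6 of Scd1. Rragc +/+ replicate 4, with a sum of 1.75, had 252.4 of Fasn and 619.2 of Scd1.

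A fit without the sample of highest adipocyte sum in each genotype, added after the values were seen, left 4 against 4 samples. The log2 difference of Scd1 was then 0.99 with an SE of 0.22 and passed (adjusted p = 0.011 in limma), and Me1 (0.49, adjusted p = 0.00993) and Msmo1 (-0.79, adjusted p = 0.012) also passed. Fasn stood at 0.16 (adjusted p = 0.75), Acaca at 0.22 (0.51) and Elovl6 at 0.58 (0.19). In these 8 samples Scd1 ran from 526.4 to 1069.5 in Rragc +/+ and from 807.6 to 2257 in Rragc S74N/+ kidneys, and the adipocyte sum from 373.8 to 1253 and from 684.4 to 1779.6. Most of that sum was Car3, which had 235.8 to 713.7 counts in Rragc +/+ and 563.2 to 1341 in Rragc S74N/+ kidneys. Without Car3 the other 9 markers summed to 138.0 to 539.2 and to 121.2 to 438.1. The part of adipocyte RNA in the level of Scd1 was not tested.

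**Figure D3:**
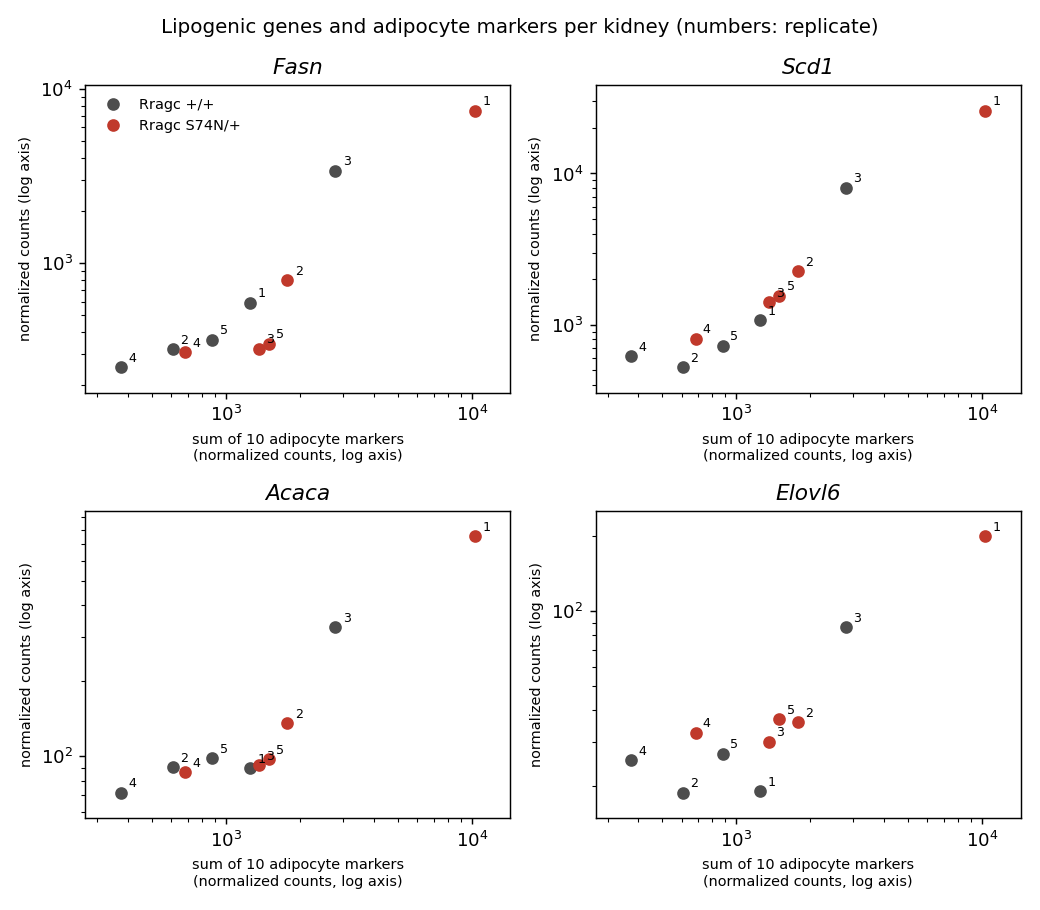
Normalized counts of Fasn, Scd1, Acaca and Elovl6 against the sum of 10 adipocyte markers in each of the 10 kidneys, on log axes, with replicate numbers beside the points. In all 4 panels Rragc S74N/+ replicate 1 (marker sum 10292) and Rragc +/+ replicate 3 (2791) are the highest points on both axes.

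The spread between samples of the same genotype differed widely among the 35 genes. The pooled SD of log2 counts was 1.79 for Scd1 and 1.75 for Fasn, both at the 99.8 percentile of all genes, 1.11 for Acaca and 1.02 for Elovl6. At the other end it was 0.113 for Acat2, 0.132 for Ebp, 0.145 for Srebf2, 0.157 for Sc5d and 0.170 for Me1. The median was 0.379 over the 35 genes and 0.334 over all genes.

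Rragc S74N/+ replicate 1 stood apart across the set. It was the highest or the lowest of the 10 samples for 23 of the 35 genes, 12 times highest and 11 times lowest, or 65.7% against 44.5% of all genes. Its highs included Srebf1, Pmvk, Fdps and Mvd beside the fatty acid genes above, and its lows included Scap, Hmgcs1, Cyp51, Stard4 and Acss2. Without it, the genes called among the 35 were Me1, Msmo1 and Srebf2.

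**Figure D4:**
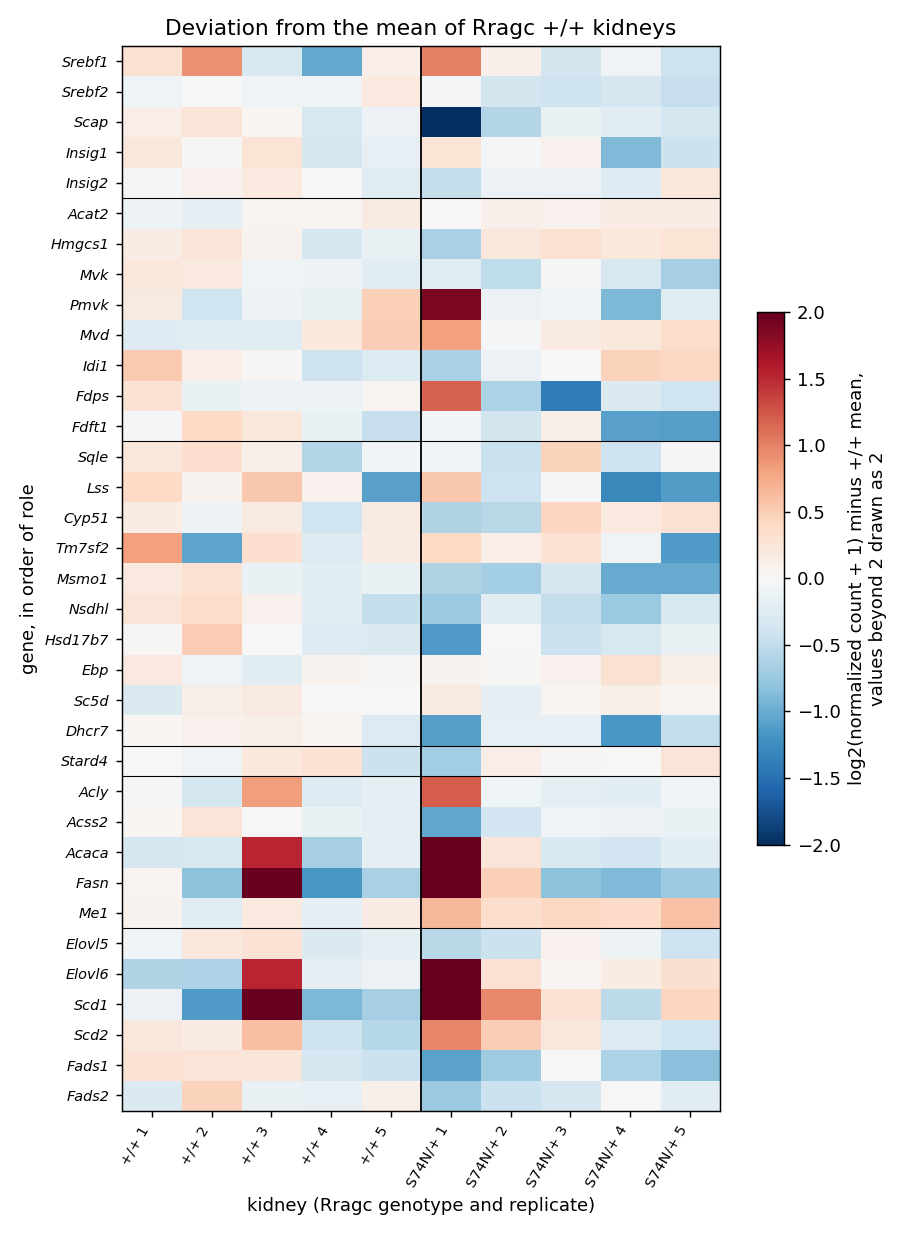
Deviation of each of the 35 genes from its mean in Rragc +/+ kidneys, as log2(normalized count + 1), for the 10 kidneys in columns, with lines between role groups. Red is above and blue below the Rragc +/+ mean, with values beyond 2 drawn as 2. Rragc S74N/+ replicate 1 and Rragc +/+ replicate 3 share strong red cells at Fasn, Scd1, Acaca and Elovl6, while the Msmo1 row is blue and the Me1 row red in all 5 Rragc S74N/+ kidneys.

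Around this core, 91 other lipid genes were examined in 5 lists, of which 87 were in the table and tested. Of these, limma called 0 higher, against 3.45% of all genes, and 5 lower, or 5.75% against 2.58%. In either direction the share was 5.75%, near the 6.03% of all genes. At an unadjusted p under 0.05, 7 were higher and 16 lower (8.05% and 18.4%, against 12.6% and 12.8% of all genes). DESeq2 and edgeR on the reads of all 10 samples each called 0 higher and the same 5 lower. On 8 samples DESeq2 called 1 higher and 5 lower, and edgeR 0 higher and 4 lower. Of all 13236 genes, DESeq2 and edgeR called 1351 and 834 on 10 samples, and 1402 and 851 on 8, against 798 with limma. The median log2 fold change was -0.13. Genes of SREBP processing and lipid regulation had 1 of 18 lower, other isoprenoid and sterol enzymes 0 of 14, fatty acid elongation and supply 2 of 20, triglyceride and phospholipid assembly 1 of 19, and sterol uptake, export and storage 1 of 16.

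Spring1 encodes a Golgi protein needed for SREBP processing. Its normalized counts were 43.6, 44.7, 45.1, 36.7 and 42.8 in Rragc +/+ and 25.2, 25.2, 25.0, 13.2 and 24.3 in Rragc S74N/+ kidneys. The genotypes did not overlap, and the log2 difference was -0.92 with an SE of 0.23 (adjusted p = 0.027 in limma). The call was lost in 6 of 25 alternatives, among them the fits without Rragc +/+ replicate 1, 2 or 3 or Rragc S74N/+ replicate 5, with an adjusted p of at most 0.074.

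Acss1, the mitochondrial enzyme that makes acetyl-CoA from acetate, showed the largest change of these lipid genes. The samples held 403.9, 338.1, 348.5, 343.2 and 232.8 counts in Rragc +/+ and 83.9, 127.0, 139.0, 86.6 and 117.6 in Rragc S74N/+ kidneys. The genotypes were far apart, and the log2 difference of -1.59 with an SE of 0.18 (adjusted p = 9.4e-05 in limma) passed in all 26 alternatives. Acss2, its cytosolic counterpart above, had a log2 fold change of -0.35 that did not pass.

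Fads6, a member of the fatty acid desaturase family, had 105.2, 119.6, 115.2, 133.6 and 143.3 counts in Rragc +/+ and 38.2, 48.5, 94.0, 84.5 and 59.3 in Rragc S74N/+ kidneys. The genotypes did not overlap, and the log2 difference was -0.99 with an SE of 0.22 (adjusted p = 0.017 in limma). Apoe, the lipid carrier of lipoproteins, had 2182, 1572, 1777, 2054 and 1462 counts in Rragc +/+ and 1274, 1379, 839.8, 838.2 and 1053 in Rragc S74N/+ kidneys.

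Apoe did not overlap between genotypes either, at a log2 difference of -0.76 with an SE of 0.16 (adjusted p = 0.011 in limma). The calls of Fads6 and Apoe were each lost in 1 of 26 alternatives, the fit without the variance trend (adjusted p = 0.051 and 0.054). Plin3, a coat protein of lipid droplets, had 228.2, 176.9, 179.5, 235.8 and 185.1 counts in Rragc +/+ and 99.8, 187.1, 126.0, 130.4 and 128.2 in Rragc S74N/+ kidneys. Rragc S74N/+ replicate 2 lay within the Rragc +/+ range, and the log2 difference of -0.60 with an SE of 0.16 (adjusted p = 0.040 in limma) lost its call in 14 of 26 alternatives, including 8 of the 10 fits that left out 1 sample.

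**Figure D5:**
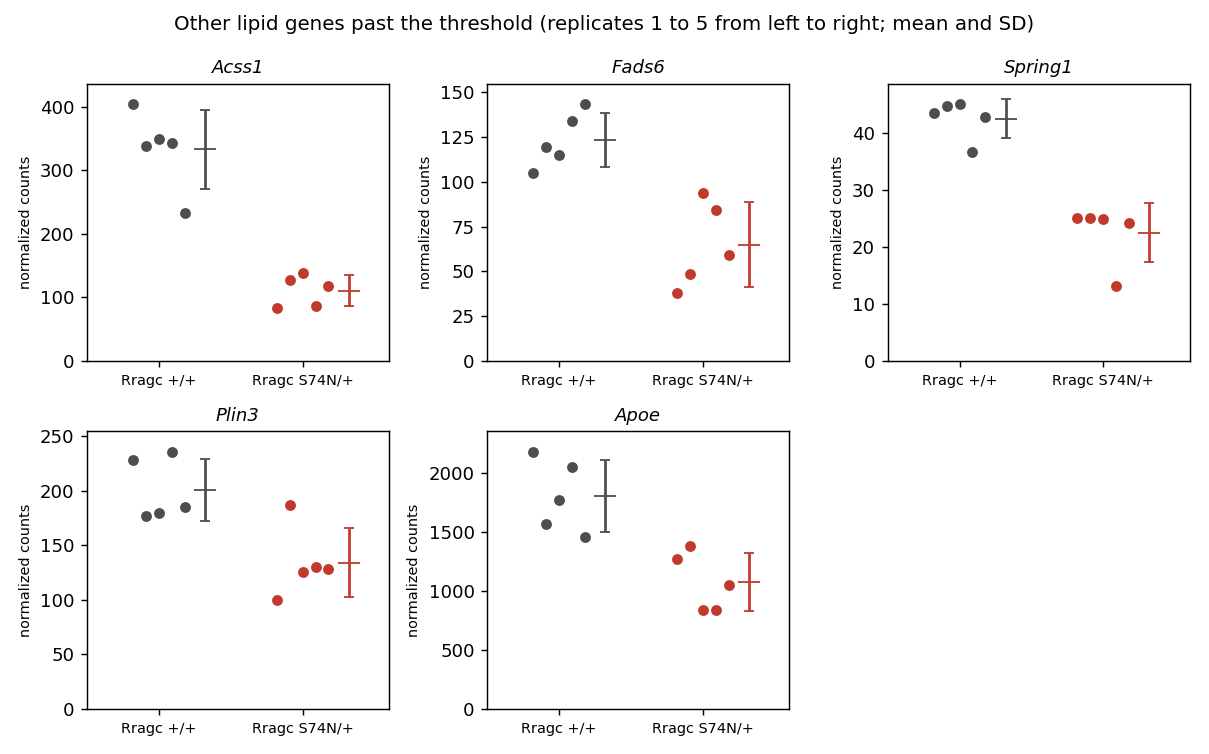
Normalized counts of the 5 other lipid genes past the threshold in each kidney, with replicates 1 to 5 of each genotype from left to right and the mean and SD beside them, on axes that start at 0. Acss1, Fads6, Spring1 and Apoe have no overlap between genotypes, and Plin3 overlaps through Rragc S74N/+ replicate 2 (187.1).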

How the data were processed

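The measurement was 3′ mRNA sequencing of whole kidney. The authors checked reads with FastQC 0.11.7, aligned them to GRCm39 with TopHat2 2.0.10, Bowtie 1.0.0 and SAMtools 0.1.19, and counted them per gene with HTSeq 0.6.1. The deposited signal values are normalized counts, that is counts divided by a size factor for each sample. Reads with several matches were allowed in the alignment, and how the counting treated them was not given in the sources used here. Groups came from the genotype labels.

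Genes with at least 5 normalized counts in at least 5 samples were kept. Log2 of the value plus a pseudocount of 1, a scale that understates changes of low genes, was fitted with limma 3.58.1 (R 4.3.3, variance trend, genotype as the only term), and p-values were adjusted by Benjamini-Hochberg at a threshold of 0.05. Whole reads, to within 0.01 of a read, were recovered for 100% of values in all 10 samples. DESeq2 1.42.0 and edgeR 4.0.16 were run on 8 samples, 4 per genotype, leaving out those whose value of 1 read was too near 1 for the test of whole reads, and on all 10 samples. The scripts were tested on simulated data. All 35 genes are named, with values per sample for those called, the SREBP system and the gene of highest mean count in each branch. Such values for other genes, the fit without the samples of highest adipocyte marker sum, and the count models on all 10 samples were chosen after the data were seen. The 35 genes and all lists were chosen with earlier results of these data known. Some genes of these routes were not analysed here.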

Additional observations from a re-analysis of the deposited data

Results flagged for a closer look

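Among 70 groups of 5 samples (35 genes in both genotypes), 16 held a sample whose gap to the nearest other exceeded 0.71 of the range of its group. For normally distributed values chance flags about 1 in 20 groups, or 3.5 here. The gaps were taken on normalized counts without a log, which need not be normally distributed, so 3.5 is only a guide. Genes that move together are not independent. No explanation was tested.

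Of these, 10 were in Rragc S74N/+ replicate 1. It was high for Srebf1 (35.4 normalized counts, against 12.6 to 18.4 in the rest of its group), Srebf2 (289.1 against 213.7 to 233.2), Pmvk (180.9 against 25.5 to 46.0) and Fdps (94.2 against 15.0 to 33.6). It was low for Hmgcs1 (1189.9 against 2157 to 2302). It was also high for Acly (940.9 against 346.3 to 389.6), Acaca (752.6 against 86.6 to 135.7), Fasn (7505 against 307.6 to 792.8), Elovl6 (199.6 against 30.0 to 36.9) and Scd1 (26048 against 807.6 to 2257).

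Rragc +/+ replicate 3 accounted for 5, all in the genes of fatty acid synthesis that also stood out above. It was high for Acly (727.6 against 316.3 to 396.0), Acaca (327.3 against 71.6 to 98.5), Fasn (3384 against 252.4 to 589.6), Elovl6 (86.4 against 18.7 to 26.9) and Scd1 (8077 against 526.4 to 1069.5). The last was Dhcr7 in Rragc +/+ replicate 5, which was low at 38.8 against 48.0 to 50.9.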

How the results depend on the processing

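No paired analysis was made, because the labels name no pairs and the replicate numbers were given here. Each of the 35 fold changes was recomputed under 26 alternatives, or 25 for the 7 genes lost under a minimum mean of 50, and 23 genes kept their sign throughout. The number of the 35 called higher was 0 without the variance trend and 2 (Me1 and Scd1) in the fit without the samples of highest adipocyte sum. It ran from 0 to 1 over the fits that left out 1 sample. The number called lower was 2 (Fads1 and Msmo1) with DESeq2 on all 10 samples and with the range of title numbers as a block. The same 2 were called with DESeq2, edgeR and limma on 8 samples. Those 8 lack the highest Rragc S74N/+ and the lowest Rragc +/+ value of Fads1. The number called lower was 0 without the variance trend. Over the fits that left out 1 sample it ran from 0 to 2. It was 0 without Rragc +/+ replicate 1, Rragc +/+ replicate 2 or Rragc S74N/+ replicate 5. With equal totals 1 gene of the 35 did not overlap between genotypes, Me1. The number of other lipid genes called lower was 2 without the variance trend and 8 without the samples of highest adipocyte sum, and it ran from 3 to 7 over the fits that left out 1 sample. The cause of these changes was not tested.

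The other 12 genes changed sign under at least 1 alternative, and their log2 fold changes given above reached 0.41 in size. With DESeq2 and edgeR on 8 samples the log2 fold change was -0.013 and -0.00497 for Idi1 and 0.17 and 0.19 for Fdps. With limma on the same 8 samples it was -0.043 for Idi1 and -0.020 for Hmgcs1. With edgeR on all 10 samples it was 0.0032 for Cyp51. With equal totals it was 0.029 for Cyp51 and 0.028 for Stard4. Without the samples of highest adipocyte sum it was -0.27 for Srebf1, -0.36 for Pmvk, 0.13 for Cyp51 and 0.16 for Stard4. Over the fits that left out 1 sample, it ran from -0.20 to 0.28 for Srebf1, from -0.011 to 0.25 for Hmgcs1, from -0.33 to 0.36 for Pmvk, from -0.092 to 0.19 for Idi1, from -0.17 to 0.086 for Cyp51, from -0.34 to 0.18 for Tm7sf2, from -0.022 to 0.10 for Sc5d, from -0.16 to 0.11 for Stard4, from -0.14 to 0.34 for Acly, from -0.16 to 0.79 for Acaca and from -0.48 to 1.001 for Fasn.

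Over all genes, 798 were called, against 1402 with DESeq2 on 8 samples, 1351 with DESeq2 on all 10, 391 without the variance trend and 311 to 902 in the fits that left out 1 sample. Of the calls 57.3% were higher, against 76.1% with equal totals and 68.9% with equal totals of genes outside the mitochondrial genome. The intervals of Srebf1 and Tm7sf2, which had low counts, and of Fasn and Scd1, which had high counts, all spanned more than 1 log2 unit, and the part of depth in this was not tested.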
